A study of Homo sapiens with 9 samples.

Results

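Androgen receptor target genes were described here in LNCaP:C4-2 cells, an established castrate-resistant but enzalutamide-sensitive prostate cancer line. The set was a given list of 40 well-known androgen-regulated prostate genes, found by symbol among 60675 genes in the deposited count tables, and 38 of the 40 had enough counts to be tested among 19278 genes. RNA sequencing was available for 9 libraries in 3 groups of 3: shScramble, shMETTL3 guide 2 and shMETTL3 guide 1. Each group carried a doxycycline-inducible pLKO.1 construct that was delivered by lentivirus and selected with puromycin at 1 μg/ml for 3 weeks. The construct expressed a short hairpin RNA, a transcript that directs cleavage of a matching mRNA. In shScramble the hairpin matched no gene, whereas the other groups carried a hairpin against METTL3, the catalytic subunit of the complex that writes N6-methyladenosine (m6A) into mRNA. All groups received doxycycline at 1 μg/ml for 6 days in phenol red-free medium with 10% charcoal-stripped serum, which is depleted of steroid hormones, although the sample titles name a vehicle. The labels did not say whether the 3 libraries of a group came from separate cultures, so p-values measure the spread between these libraries, which may be technical. The comparisons asked how METTL3 depletion altered basal gene expression.

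The androgen receptor is a ligand-activated transcription factor of the steroid receptor family. Without ligand it is held by HSP90 and its cochaperones. With ligand it moves to the nucleus, pairs with a second receptor molecule and binds androgen response elements, mostly in distal enhancers opened by FOXA1, HOXB13 and GATA2. Its targets in luminal prostate cells include kallikrein proteases, transporters, polyamine and sugar enzymes, and feedback regulators such as FKBP5. The glucocorticoid, mineralocorticoid and progesterone receptors recognise nearly the same DNA element, so several of these genes also respond to other steroids.

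The hairpin target sequences are shown because they define the groups. Both were read 5′ to 3′ from the sample labels and have 21 bases.
shMETTL3 guide 2: gctgcacttcagacgaattat
shMETTL3 guide 1: cgtcagtatcttgggcaagtt
Both matched METTL3 on the minus strand of chromosome 14 (GRCh38). In the GENCODE transcript METTL3-201, which has 11 exons, the guide 2 target joined 12 bases at the end of exon 4 (chr14:21501728-21501739) to 9 bases of exon 5 (chr14:21501121-21501129). The guide 1 target lay in exon 6 of this transcript (chr14:21500633-21500653), which the labels number as exon 5. Each matched 5 transcripts of 1 gene, METTL3, and 0 transcripts of the 40 target genes.

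The start regions of the neighbouring kallikrein genes KLK3 and KLK2 are shown because KLK3 was called in guide 2 libraries and KLK2 was not. They are also shown because they were the only listed genes whose start matched the relaxed receptor element marked below. RefSeq start regions (GRCh38.p14, 250 bases before to 50 after the start) were found for 31 of the 40 genes, in 54 entries. Both sequences run 5′ to 3′ on the plus strand over the 250 bases before the start, and capitals mark the match to GAACANNNNGTNCT.
KLK3, chr19:50854665-50854914: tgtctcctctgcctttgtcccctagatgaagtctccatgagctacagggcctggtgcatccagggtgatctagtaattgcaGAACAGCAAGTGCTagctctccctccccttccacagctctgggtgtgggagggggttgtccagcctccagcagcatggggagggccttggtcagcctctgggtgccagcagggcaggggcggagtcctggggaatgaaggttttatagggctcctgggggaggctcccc
KLK2, chr19:50873189-50873438: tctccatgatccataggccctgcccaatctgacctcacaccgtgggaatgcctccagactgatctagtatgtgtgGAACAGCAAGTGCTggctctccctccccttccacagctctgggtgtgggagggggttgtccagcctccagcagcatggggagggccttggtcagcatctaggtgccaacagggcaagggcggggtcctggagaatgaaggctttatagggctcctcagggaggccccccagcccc
The letters of the match were the same in both genes, starting 169 bases before the KLK3 start and 175 bases before the KLK2 start. This RefSeq KLK2 start lay inside the span of the counted KLK2 gene (chr19:50861568-50880567), not at its first base. Over 241 aligned bases the upstream sequences had 199 identical bases (82.6%). The relaxed motif, searched on both strands, occurred in 0.248% of all 35116 start regions and in 2 of the 54 entries of listed genes. Another relaxed form of the element was also searched. That form occurred in 0.199% of all start regions and in 0 of the 54 entries. The full palindrome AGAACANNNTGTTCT occurred in 1 start region (0.00285%), of no listed gene. The overlapping shorter motif AGAACA was present in 14.8% of the listed genes' entries and in 14.8% of all entries. It was found at 7 listed genes, which were KLK3, FKBP5, PMEPA1, SGK1, TRPM8, LIFR and IQGAP2. A match is a description of letters only, and enhancers were not examined.

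Each library held 21899501 to 30897639 assigned reads, and the guide 2 libraries had fewer genes with a read (24884 to 26505) than the other 6 (28459 to 29628). METTL3 fell 1.93-fold in guide 2 libraries (log2 fold change -0.95 ± 0.0687 SE; adjusted p = 2.97e-12). Opposite-strand TOX4, with up to 2974 counts, shared 6.58% of METTL3 exon bases, and the strand setting of the counting was not stated. In the libraries labelled guide 1 the METTL3 range of 29.4 to 30.1 CPM (counts scaled to the effective library size) overlapped the 29.8 to 33.0 CPM of shScramble (-0.08 ± 0.0633; adjusted p = 0.251). These libraries are therefore named by their label, and a direction drawn from them cannot be tied to lowered METTL3 RNA. Luminal markers were abundant in every group, with the summed level of 7 genes, including KRT8, EPCAM and FOLH1, at 3560 to 3660 CPM in shScramble. Against them, 3 of 4 basal markers and 3 of 4 leukocyte markers were at 3 counts or fewer in all 9 libraries.

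Levels of the target genes in shScramble spanned a wide range when scaled for gene length (TMM-scaled RPKM, the CPM divided by the exon length in kilobases). TSC22D3, a glucocorticoid- and androgen-induced leucine zipper protein, was highest at 41.7 ± 2.43 (SD, n = 3). It was followed by SORD, which turns sorbitol into fructose, at 39.2 ± 1.66 and by SMS, the spermine synthase, at 37.7 ± 0.479. The ranges of TSC22D3 and SORD overlapped, as did those of SORD and SMS. The ETS transcription factor SPDEF came next at 26.0 ± 1.91 and stood clear of both its neighbours in this order. The classical prostate markers stood lower in the order, with KLK4 at 14.3 ± 0.598, TMPRSS2 at 7.31 ± 0.228, KLK3 at 2.82 ± 0.302 and KLK2 at 1.77 ± 0.288. A hormone-replete control was not analysed here. Of the 39 neighbouring pairs in the order, 22 had overlapping ranges. STEAP4, a metalloreductase, and NNMT, a nicotinamide methyltransferase, had at most 3 counts in each of the 9 libraries and were not tested. In the order within guide 2 libraries SORD came first and MAF moved from rank 34 to 36, whereas in libraries labelled guide 1 MAF stood at rank 21 of 40.

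**Figure D1:**
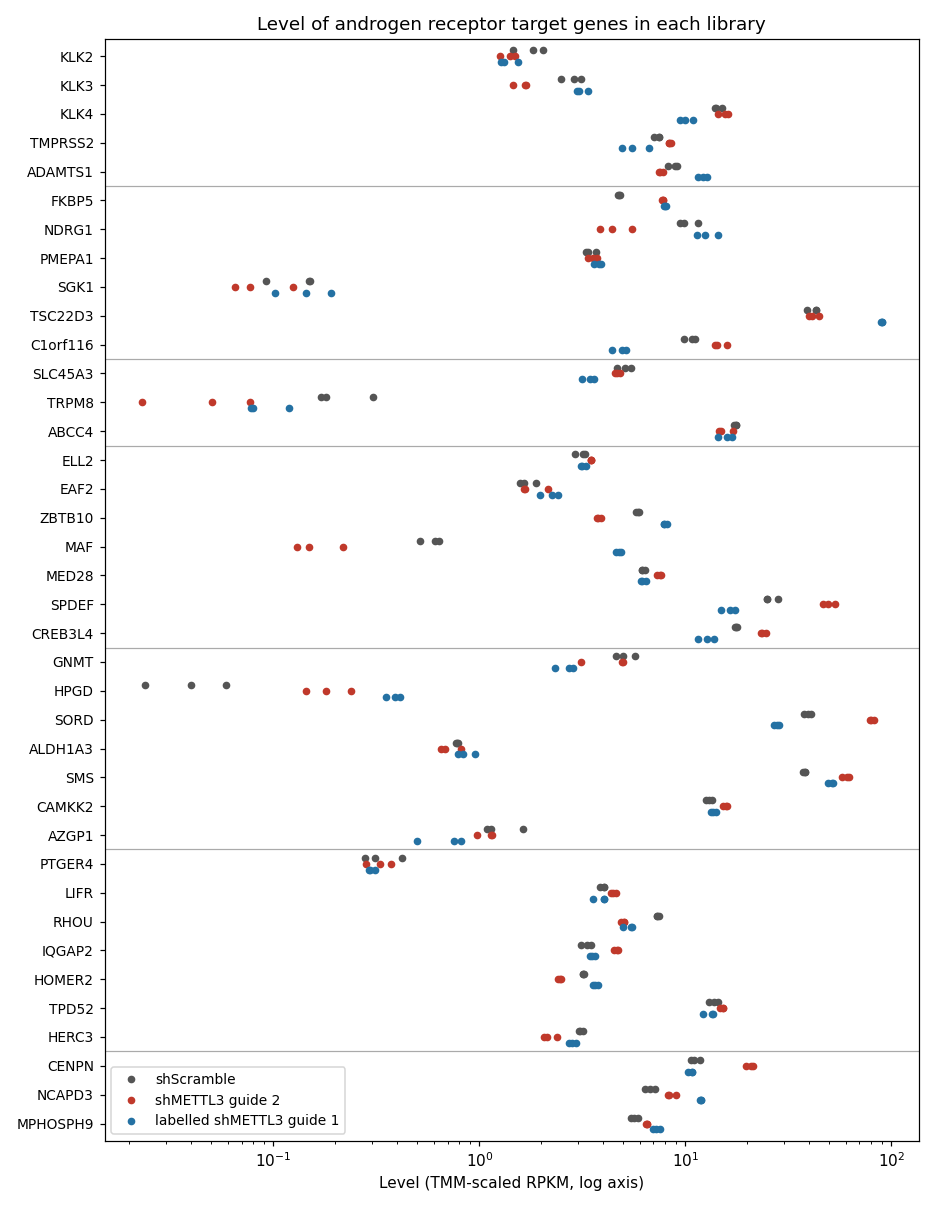
Level of the 38 tested genes in each library (horizontal axis, TMM-scaled RPKM, log axis), one point per library and colours for the 3 groups, with lines between functional groups. The shScramble means run from 0.0407 for HPGD to 41.7 for TSC22D3, and MAF shows the widest separation of the groups.

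Compared with shScramble, 11 of the 38 tested target genes changed in guide 2 libraries, with 6 higher and 5 lower. Genes were called changed when they differed by 1.5-fold or more with an adjusted p under 0.05. These 11 were 28.9% of the tested targets, beside 29.3% of all genes tested, so the share was close to the background. Over all genes 8.85% were raised and 20.4% lowered. The targets that rose were FKBP5, SPDEF, HPGD, SORD, SMS and CENPN, and those that fell were KLK3, NDRG1, TRPM8, ZBTB10 and MAF. In the libraries labelled guide 1, 10 targets changed (26.3%, beside 37.7% of all genes), with 5 raised (FKBP5, TSC22D3, MAF, HPGD and NCAPD3) and 5 lowered (C1orf116, TRPM8, SPDEF, GNMT and AZGP1). Background shares there were 21.2% raised and 16.5% lowered. The median log2 fold change of the targets was 0.06 in guide 2 and 0.01 in guide 1 libraries, and that of all genes was -0.04 and -0.02. Both comparisons use the same 3 shScramble libraries. In the direct test between the hairpins, 16 targets differed (42.1%, beside 47.3% of all genes), of which 8 were higher and 8 lower in guide 2 libraries. The background shares were 19.1% higher and 28.2% lower. At adjusted p under 0.05 and any fold, which includes the genes called above, 27 targets passed in guide 2 libraries (beside 61.8% of all genes), 24 in guide 1 libraries (68.4%) and 28 between the hairpins (74.6%).

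**Figure D2:**
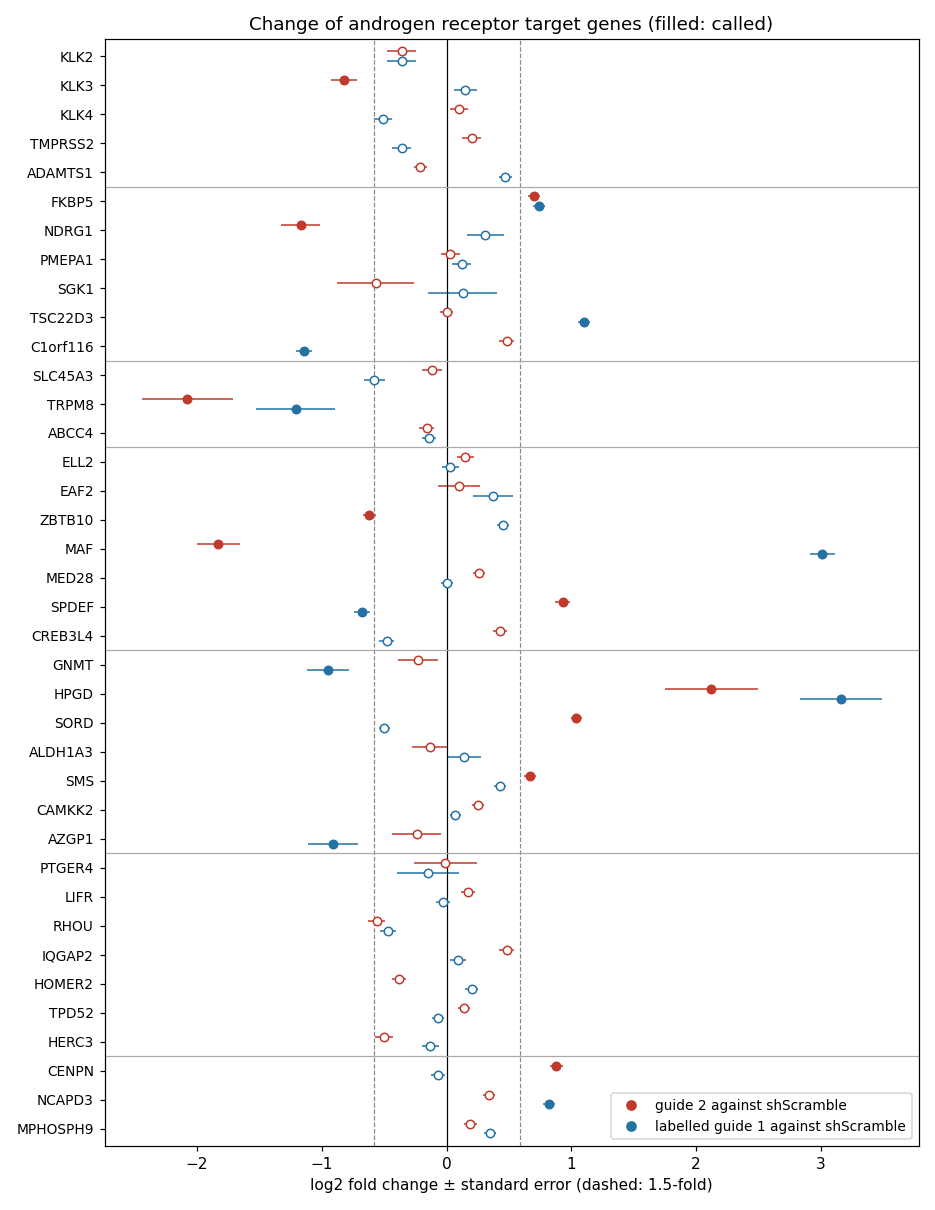
Change of the 38 tested target genes against shScramble (horizontal axis, log2 fold change ± SE), for guide 2 libraries (red) and libraries labelled guide 1 (blue). Filled points were called, dashed lines mark 1.5-fold, and MAF (-1.83 and 3.01) and SPDEF (0.93 and -0.68) lie on opposite sides of 0 in the 2 comparisons.

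Among the 5 proteases, KLK3, which encodes prostate-specific antigen (chr19:50854915-50860764), was the single gene called against shScramble. Its level was 13.3, 14.4 and 11.6 CPM in shScramble, 6.72, 7.85 and 7.71 CPM in guide 2 libraries, and 13.8, 14.1 and 15.7 CPM in libraries labelled guide 1. The 3 guide 2 libraries were below the other 6, while shScramble and guide 1 overlapped. KLK3 fell 1.77-fold in guide 2 libraries (-0.82 ± 0.105; adjusted p = 1.4e-07) and was lower there than in guide 1 libraries by 1.96-fold (adjusted p = 2.29e-09). KLK2, the kallikrein that activates the KLK3 proenzyme and lies next to it (chr19:50861568-50880567), was not called. It stood at 13.0, 9.36 and 11.6 CPM in shScramble, 8.02, 8.97 and 9.47 CPM in guide 2 and 8.15, 9.83 and 8.43 CPM in guide 1 libraries. Its difference from shScramble was -0.36 in both comparisons (adjusted p = 0.0101 and 0.00666), under the fold limit and with overlapping groups. KLK2 did not differ detectably between the hairpins (0.00 ± 0.121; adjusted p = 0.978).

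KLK4, a kallikrein on the opposite strand of the same locus (chr19:50906352-50910738), had another pattern. Its level was 27.2, 27.0 and 29.1 CPM in shScramble, 30.0, 27.9 and 31.1 CPM in guide 2 and 18.2, 21.1 and 19.3 CPM in guide 1 libraries. The guide 1 libraries were lowest, by 1.42-fold against shScramble (adjusted p = 4.53e-07), which is under the fold limit. KLK4 was 1.52-fold higher in guide 2 than in guide 1 libraries (adjusted p = 1.99e-08), a call that was lost when libraries were scaled by total count alone (0.47) or at a minimum mean of 1 CPM (0.56). Leaving out guide 1 replicate 1 (0.55) or guide 2 replicate 3 (0.58) also ended that call. TMPRSS2, a membrane serine protease and frequent fusion partner of ERG, was 1.14-fold higher in guide 2 libraries (adjusted p = 0.0284) and 1.29-fold lower in guide 1 libraries (adjusted p = 0.000222). ADAMTS1, a secreted metalloproteinase that cleaves proteoglycans, had the opposite signs, at -0.21 and 0.47. Its levels of 52.5 to 54.9 CPM in guide 2 and 81.0 to 90.1 CPM in guide 1 libraries differed by 1.6-fold (adjusted p = 4.28e-12). No 100-base stretch of the KLK2, KLK3 or KLK4 transcripts was shared with another gene.

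The other kallikrein genes of the cluster were mostly silent. Of 12 listed, 3 had enough counts to be tested. Of those, 0 were called in guide 2 and 3 in guide 1 libraries, beside 29.3% and 37.7% of all genes. KLK14 rose in guide 1 libraries (1.10 ± 0.4; adjusted p = 0.0165, at under 1 CPM), a call that was lost without shScramble replicate 2 (adjusted p = 0.0528) or guide 1 replicate 1 (adjusted p = 0.0618). KLK1 fell there (-0.90 ± 0.142; adjusted p = 2.91e-06). KLK15, named here after its values were seen, also fell (-0.72 ± 0.123; adjusted p = 8.07e-06).

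**Figure D3:**
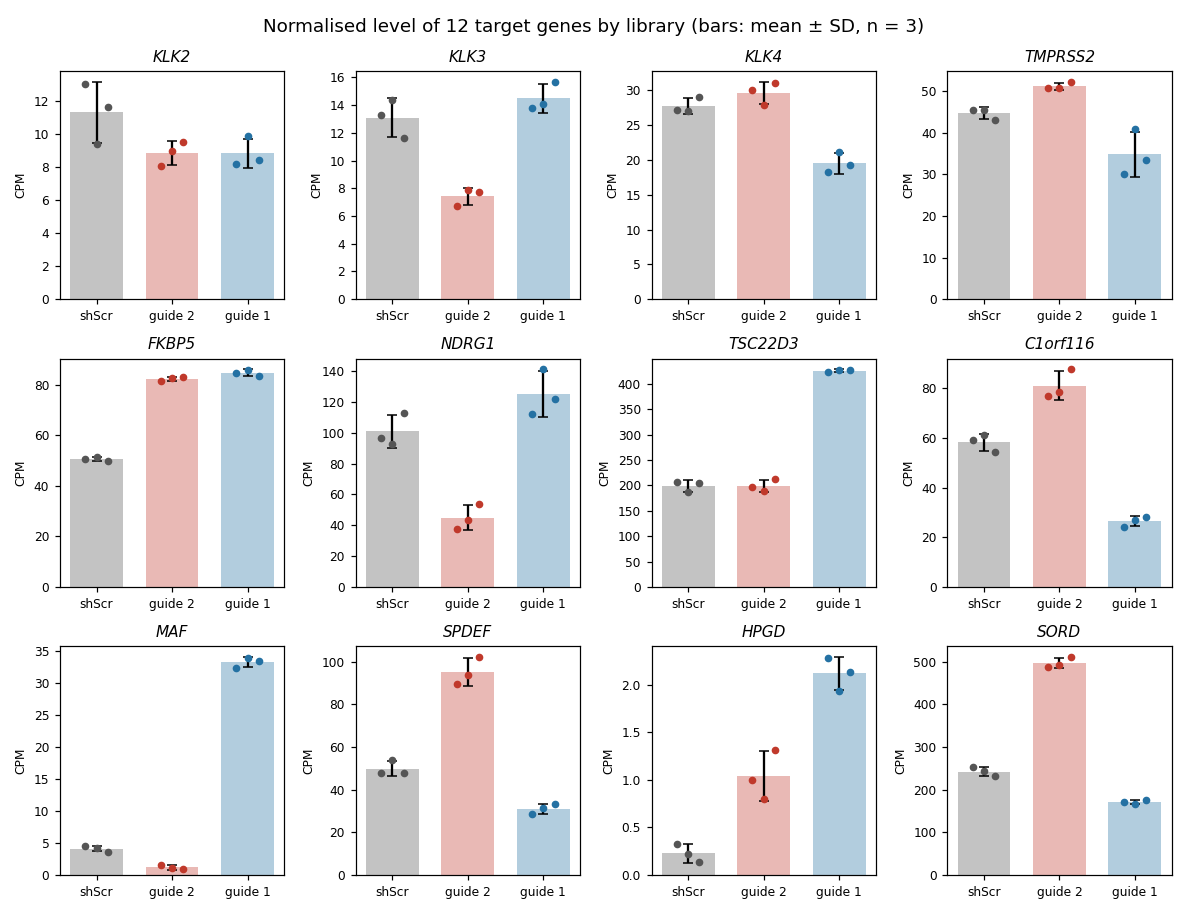
Normalised level (CPM, linear axis from 0) of 12 target genes in each library, with points for libraries and bars for the mean ± SD (n = 3), where shScr is shScramble and guide 1 is the label of the libraries. KLK3 is lowest in guide 2 libraries, FKBP5 is high in both shMETTL3 groups, and SORD, SPDEF and C1orf116 are highest in guide 2 and lowest in guide 1 libraries.

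Among the 6 genes of hormone response and growth control, FKBP5 rose in both shMETTL3 groups. FKBP5 encodes a cochaperone of steroid receptors that is among the most rapidly induced receptor targets (chr6:35573585-35728583). Its level was 50.6, 51.3 and 50.0 CPM in shScramble, 81.5, 82.5 and 83.1 CPM in guide 2 and 84.8, 86.0 and 83.4 CPM in guide 1 libraries. The 6 shMETTL3 libraries lay in a narrow range above all shScramble libraries. The rise was 1.63-fold in guide 2 (0.70 ± 0.047; adjusted p = 5.84e-13) and 1.67-fold in guide 1 libraries (0.74 ± 0.0466; adjusted p = 4.69e-14), with no detectable difference between the hairpins (-0.04; adjusted p = 0.434). With total-count scaling the guide 2 change was 0.55, under the fold limit. Both values use the same shScramble libraries.

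NDRG1, a stress-, hypoxia- and androgen-induced gene, fell with guide 2. It was at 96.8, 92.9 and 113 CPM in shScramble, 37.7, 43.2 and 53.9 CPM in guide 2 and 112, 141 and 122 CPM in guide 1 libraries. The guide 2 libraries were below every other library, at 2.25-fold under shScramble (-1.17 ± 0.159; adjusted p = 0.000624), whereas guide 1 libraries overlapped shScramble (0.31 ± 0.148; adjusted p = 0.105). TSC22D3, also known as GILZ, showed the reverse arrangement (chrX:107713221-107777342). Its levels of 196, 189 and 213 CPM in guide 2 libraries overlapped the 206, 186 and 205 CPM of shScramble, and guide 1 libraries reached 423, 427 and 427 CPM. TSC22D3 rose 2.14-fold there (1.10 ± 0.0498; adjusted p = 3.59e-17). Of the 20 tested genes nearest to TSC22D3, 11 were also raised in guide 1 libraries, beside 21.2% of all genes. Such counts also occurred near targets not called there, with 13 near ABCC4, 13 near ALDH1A3 and 12 near SGK1. The other tested targets, HPGD apart, had fewer raised neighbours. The part of these regions in the results was not tested.

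C1orf116, also named specifically androgen-regulated gene, differed in opposite directions (chr1:207018521-207032756). It was at 59.2, 61.1 and 54.3 CPM in shScramble, 77.0, 78.7 and 87.6 CPM in guide 2 and 24.2, 27.1 and 28.2 CPM in guide 1 libraries, with no overlap of any groups. It fell 2.2-fold in guide 1 libraries (-1.14 ± 0.0648; adjusted p = 7.57e-15), and its 1.39-fold higher level in guide 2 libraries (adjusted p = 1.45e-07) was under the fold limit. Between the hairpins it differed 3.06-fold (adjusted p = 1.81e-18). PMEPA1, a feedback inhibitor of TGF-beta signalling, stayed between 18.6 and 22.0 CPM over all 9 libraries and was not called in any comparison. SGK1, a kinase induced by glucocorticoids and androgens, had only 15 to 57 counts per library. Against shScramble it was -0.57 ± 0.308 in guide 2 libraries (adjusted p = 0.11), which became -0.90 and was called without guide 2 replicate 2 (adjusted p = 0.0326). Its difference of -0.70 ± 0.304 between the hairpins (adjusted p = 0.0385) came with overlapping groups, was lost with DESeq2 (adjusted p = 0.0579), and was lost when guide 1 replicate 2 (-0.71) or 3 (-0.46), or guide 2 replicate 1 (-0.52) or 3 (-0.61), was left out.

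Of the 4 transporters, channels and reductases, TRPM8 fell in both shMETTL3 groups. TRPM8 encodes a cold-sensing cation channel expressed in androgen-stimulated prostate epithelium. Its counts were low, at 44, 43 and 55 in shScramble, 14, 10 and 4 in guide 2 and 18, 17 and 28 in guide 1 libraries. Every shMETTL3 library was below every shScramble library. The change was -2.08 ± 0.365 in guide 2 (adjusted p = 1.94e-05) and -1.21 ± 0.315 in guide 1 libraries (adjusted p = 0.00132), against shared controls. The difference between the hairpins was -0.87 (adjusted p = 0.0587), and leaving out guide 2 replicate 1 gave -1.28 (0.0209) while leaving out guide 2 replicate 3 gave -0.54 (0.255). SLC45A3, the prostate-restricted transporter prostein, was at 17.3 to 20.1 CPM in shScramble and 11.7 to 13.3 CPM in guide 1 libraries. This difference of -0.58 ± 0.0822 (adjusted p = 4.21e-07) was just under the fold limit and passed it without guide 1 replicate 2 (-0.60) or 3 (-0.63), without shScramble replicate 2 (-0.59) or 3 (-0.64), and without any 1 of the guide 2 libraries (-0.59). ABCC4, an export pump for cyclic nucleotides and drugs, was within 1.12-fold of shScramble in both groups (-0.16 and -0.14; adjusted p = 0.0204 and 0.0327).

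The transcription genes included the largest difference between the hairpins among the 38 tested targets. MAF, a basic leucine zipper factor (chr16:79585843-79600714), was at 4.43, 4.24 and 3.59 CPM in shScramble, 1.52, 1.04 and 0.907 CPM in guide 2 and 32.3, 33.8 and 33.3 CPM in guide 1 libraries. The 3 groups were fully separated. MAF fell 3.56-fold in guide 2 (-1.83 ± 0.172; adjusted p = 4.8e-10) and rose 8.04-fold in guide 1 libraries (3.01 ± 0.1; adjusted p = 3.55e-20). The hairpins differed 28.6-fold (adjusted p = 1.29e-22). SPDEF, an ETS factor of secretory epithelium (chr6:34537802-34556333), was arranged the other way, at 47.7, 54.0 and 47.6 CPM in shScramble, 89.3, 93.9 and 102 CPM in guide 2 and 28.5, 31.4 and 33.2 CPM in guide 1 libraries. It rose 1.91-fold with guide 2 (0.93 ± 0.0623; adjusted p = 1.42e-12) and fell 1.61-fold in guide 1 libraries (-0.68 ± 0.0659; adjusted p = 7.81e-10).

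CREB3L4, a membrane-bound factor activated by cleavage, followed the order of SPDEF at a smaller size (0.43 in guide 2 and -0.48 in guide 1 libraries), and the hairpins differed 1.88-fold (adjusted p = 5.25e-14). In exon sequence, 12.9% of CREB3L4 overlapped opposite-strand genes, mainly SLC39A1, and the strand setting of the counting was not stated. ZBTB10, a zinc finger repressor, fell 1.54-fold in guide 2 libraries (-0.62 ± 0.0509; adjusted p = 3.52e-11), from 58.9 to 60.5 CPM in shScramble to 37.9 to 39.9 CPM. ZBTB10 was at 80.6 to 83.4 CPM in guide 1 libraries (0.45; adjusted p = 3.05e-09, under the fold limit). The elongation factor ELL2 and its partner EAF2 were not called, with values of 0.15 and 0.10 in guide 2 and 0.03 and 0.37 in guide 1 libraries. The Mediator subunit MED28 was 1.2-fold higher in guide 2 libraries (adjusted p = 2.73e-05) and level with shScramble in guide 1 libraries (0.00; adjusted p = 0.968). For MED28, 32.1% of exon bases were shared with opposite-strand FAM184B, which had at most 23 counts.

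Among 8 metabolic enzymes, 7 were tested, of which 3 rose and 0 fell in guide 2 libraries. Over all genes 8.85% were raised and 20.4% lowered with guide 2. In guide 1 libraries 1 of the 7 rose and 2 fell, beside 21.2% and 16.5% of all genes. Calls covered 42.9% of the 7 in each group, beside 29.3% (guide 2) and 37.7% (guide 1) of all genes. SORD was the second most abundant target per length in shScramble (chr15:45023104-45077185). It was at 252, 243 and 231 CPM in shScramble, 487, 493 and 510 CPM in guide 2 and 171, 166 and 176 CPM in guide 1 libraries. The groups did not overlap, and SORD rose 2.05-fold with guide 2 (1.04 ± 0.0458; adjusted p = 1.1e-16). Its 1.41-fold lower level in guide 1 libraries (adjusted p = 1.58e-10) was under the fold limit. A share of 9.44% of the 100-base stretches of SORD transcripts was also present in another gene, mainly the pseudogene SORD2P, so reads there are uncertain. SMS, which makes spermine, rose 1.6-fold with guide 2 (0.67 ± 0.0463; adjusted p = 9.97e-13), from 80.3 to 82.2 CPM to 125 to 134 CPM, and was 1.35-fold higher in guide 1 libraries (adjusted p = 2.99e-09). Under total-count scaling the guide 2 change of SMS was 0.52, under the fold limit.

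HPGD, which inactivates prostaglandins, was near the limit of detection in shScramble with 10, 7 and 3 counts. It had 23, 20 and 29 counts in guide 2 and 65, 54 and 64 counts in guide 1 libraries, so that the groups did not overlap. HPGD rose in both comparisons (2.12 ± 0.372 and 3.16 ± 0.326; adjusted p = 1.84e-05 and 1.52e-09), and was 2.06-fold lower in guide 2 than in guide 1 libraries (adjusted p = 0.00075). Of the 20 tested genes nearest to HPGD, 12 were also raised in guide 1 libraries, beside 21.2% of all genes, which was not tested further. GNMT, a glycine methyltransferase that consumes the methyl donor S-adenosylmethionine, fell 1.94-fold in guide 1 libraries (-0.95 ± 0.166; adjusted p = 1.15e-05), from 4.92 to 6.12 CPM to 2.49 to 3.06 CPM. In guide 2 libraries it overlapped shScramble (-0.23; adjusted p = 0.216). AZGP1, a secreted lipid-mobilising glycoprotein, likewise fell in guide 1 (-0.91 ± 0.202; adjusted p = 0.000252) and not detectably in guide 2 libraries (-0.24; adjusted p = 0.288). The AZGP1 difference between the hairpins (0.67; adjusted p = 0.00583) dropped to 0.48 without guide 1 replicate 3, where it was no longer called, and to 0.53 under total-count scaling. The kinase CAMKK2, an activator of AMPK, was 1.19-fold higher in guide 2 libraries (adjusted p = 3.03e-05). ALDH1A3, which makes retinoic acid, was not detectably different (-0.13 and 0.14; adjusted p = 0.439 and 0.377).

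None of the 7 receptor, signalling and trafficking genes was called by edgeR's test in any comparison. Over all genes, 29.3% were called in guide 2 libraries, 37.7% in guide 1 libraries and 47.3% between the hairpins. At any fold, 6 of the 7 passed adjusted p under 0.05 in at least 1 comparison. Of all genes, 61.8%, 68.4% and 74.6% passed it in the same comparisons taken singly. RHOU, a small GTPase, was the closest to the limit against shScramble, at 31.7 to 32.7 CPM in shScramble, 21.2 to 22.1 CPM in guide 2 and 21.8 to 24.0 CPM in guide 1 libraries. All 6 shMETTL3 libraries were lower, by 1.47-fold in guide 2 (adjusted p = 4.07e-08) and 1.39-fold in guide 1 (adjusted p = 2.77e-07). With total-count scaling RHOU passed the limit in guide 2 libraries (-0.71), as did HERC3, a ubiquitin ligase (-0.65, beside -0.50 in the test as reported), and RHOU also passed it under a stricter filter, a mean level of 1 CPM or more (-0.61). IQGAP2, a scaffold of the cytoskeleton, was 1.39-fold higher in guide 2 libraries (adjusted p = 2.95e-07), and HOMER2, a scaffold of calcium signalling, was 1.3-fold lower (adjusted p = 9.81e-07). Between the hairpins HOMER2 was nearer the limit than RHOU, at 1.49-fold lower in guide 2 libraries (-0.58; adjusted p = 1.38e-10). LIFR, the leukaemia inhibitory factor receptor, and TPD52, a vesicle trafficking protein, were within 1.13-fold of shScramble in both groups. The prostaglandin receptor PTGER4 did not differ detectably at 28 to 38 counts per library (-0.01 and -0.15; adjusted p = 0.968 and 0.617).

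The 3 chromosome and cell division genes were all higher in guide 2 libraries than in shScramble, as were 9028 of all 19278 genes. Of the 3, 1 was called (33.3%, beside 29.3% of all genes). CENPN, a centromere protein, was at 39.3, 41.9 and 38.2 CPM in shScramble, 74.0, 76.0 and 70.3 CPM in guide 2 and 38.4, 36.9 and 38.6 CPM in guide 1 libraries. It rose 1.84-fold with guide 2 (0.88 ± 0.0545; adjusted p = 1.12e-13) and was level with shScramble in guide 1 libraries (-0.07; adjusted p = 0.283). Opposite-strand CMC2 shared 12.8% of CENPN exon bases and had up to 1571 counts. NCAPD3, a condensin subunit, rose in guide 1 libraries (0.82 ± 0.0503; adjusted p = 3.05e-14), at 107 to 109 CPM beside 58.2 to 64.8 CPM in shScramble. Its value with guide 2 was 0.34 (adjusted p = 2.33e-06), under the fold limit. Of NCAPD3 exon bases, 8.89% were shared with other genes, 5.1% of them with opposite-strand JAM3, which had up to 1278 counts. MPHOSPH9, a centriole protein, was higher by 1.14-fold in guide 2 and 1.28-fold in guide 1 libraries.

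The 3 other steroid receptors that recognise nearly the same DNA element differed between the hairpins, but not all in 1 direction. NR3C1, the glucocorticoid receptor, was lowest in guide 2 and highest in guide 1 libraries. Its level was 2.98, 2.89 and 2.80 CPM in shScramble, 1.08, 0.837 and 0.453 CPM in guide 2 and 22.0, 21.9 and 21.3 CPM in guide 1 libraries. NR3C1 fell with guide 2 (-1.86 ± 0.207; adjusted p = 1.25e-08) and rose in guide 1 libraries (2.91 ± 0.118; adjusted p = 3.12e-18). PGR, the progesterone receptor, named after its values were seen, also rose in guide 1 libraries (2.75; adjusted p = 2.71e-08), from only 6 to 10 counts in shScramble. NR3C2, the mineralocorticoid receptor, also named after its values were seen, was the most abundant at 14.9 to 15.5 CPM in shScramble. It was not called against shScramble (0.33 and -0.25) and was higher in guide 2 than in guide 1 libraries (0.59; adjusted p = 3.08e-07). That call sat at the fold limit, at 0.53 to 0.65 with each library left out. The part of these receptors in the values of the target genes was not tested.

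All 8 genes of the receptor chaperone list were above shScramble in guide 2 libraries under TMM and under total-count scaling. Under TMM, 9028 of all 19278 genes were above it. Of the 8, 3 rose (37.5%, beside 29.3% of all genes called). FKBP4, an HSP90 cochaperone, had the largest rise, from 255 to 269 CPM to 513 to 550 CPM (1.02 ± 0.0463; adjusted p = 2.13e-16). The other two, named after their values were seen, were HSP90AA1 (0.81) and HSP90AB1 (0.80). HSPA8 alone fell in guide 1 libraries (-0.59 ± 0.0612; adjusted p = 4.98e-09). This call sat at the fold limit and was lost with DESeq2, with its size factors in edgeR and with the replicate block (-0.58 in each), and without shScramble replicate 2 (-0.54) or 3 (-0.57) or guide 1 replicate 2 (-0.53). The list median was 0.49 in guide 2 and -0.17 in guide 1 libraries. The 1 call in guide 1 libraries was 12.5% of this list, beside 37.7% of all genes. Of 15 cofactors, HOXB13 (0.78 ± 0.0482; adjusted p = 1.06e-13) and, named after its values were seen, KDM1A (0.69, but 0.54 and not called with total-count scaling) rose with guide 2 and 0 fell. In guide 1 libraries 3 cofactors fell, of which FOXA1, the pioneer factor of receptor enhancers, fell most (-0.99 ± 0.0475; adjusted p = 1.19e-16). The others, named after their values were seen, were GRHL2 (-0.96) and HOXB13 (-0.74). The cofactors called were 13.3% of the list with guide 2 and 20% in guide 1 libraries, under the 29.3% and 37.7% of all genes.

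**Figure D4:**
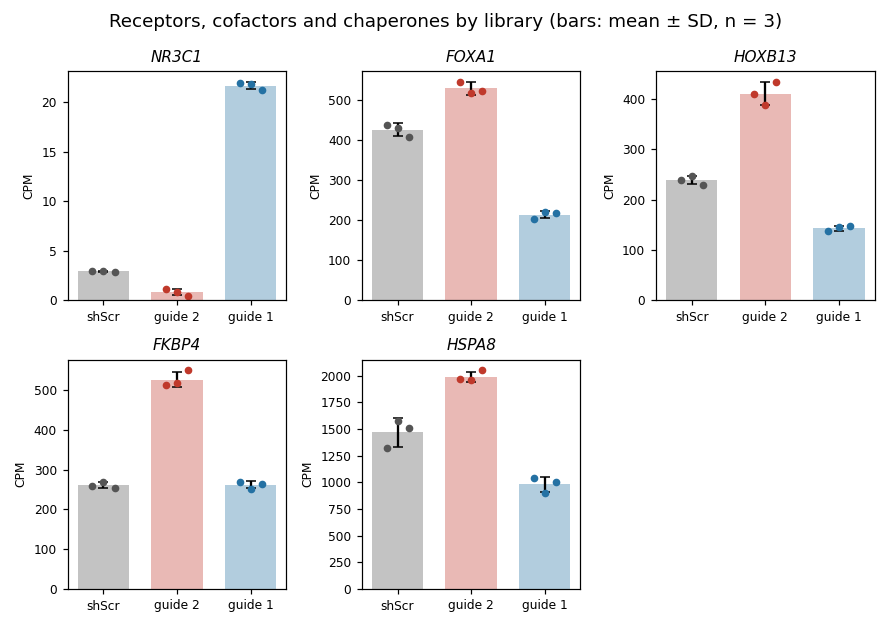
Normalised level (CPM, linear axis from 0) of NR3C1, FOXA1, HOXB13, FKBP4 and HSPA8 in each library, with bars for the mean ± SD (n = 3), where shScr is shScramble and guide 1 is the label of the libraries. FOXA1 and HOXB13 are highest in guide 2 and lowest in guide 1 libraries, and NR3C1 is highest in guide 1 libraries at 21.3 to 22.0 CPM.

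Other androgen-regulated genes outside the 40 were read from hand-written lists. Of 20 further androgen-induced genes, 18 were tested. With guide 2, 6 rose and 2 fell (44.4% of those tested, beside 29.3% of all genes), with a median of 0.14. INSIG1, a brake on sterol synthesis, rose most (1.46 ± 0.0776; adjusted p = 1.11e-09), and BMPR1B, a bone morphogenetic protein receptor, fell most (-2.61 ± 0.28; adjusted p = 6.3e-09, at under 3 CPM). In guide 1 libraries 2 rose and 8 fell (55.6%, beside 37.7% of all genes), with a median of -0.57. GREB1, a hormone-induced growth gene, rose most there (1.36 ± 0.109; adjusted p = 8.92e-12), and the coagulation factor gene F5 fell most (-2.11 ± 0.39; adjusted p = 2.61e-05). Counts of F5 were low, at 44, 34 and 23 in shScramble and 11, 9 and 3 in guide 1 libraries.

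Of 7 androgen-repressed genes, 6 were tested. Calls covered 33.3% of the 6 with guide 2 and 100% in guide 1 libraries, beside 29.3% and 37.7% of all genes. UGT2B17, which glucuronidates androgens, rose most with guide 2 (3.09 ± 0.111; adjusted p = 5.66e-15). Its near-identical paralogue UGT2B15 (2.20), named after its values were seen, was the only other gene of the list to rise, 0 fell, and reads of this pair may be split uncertainly. In guide 1 libraries MET, a growth factor receptor, rose (1.39 ± 0.0717; adjusted p = 5.73e-16) and the other 5 fell, most of all CAMK2N1, a kinase inhibitor (-1.65 ± 0.0577; adjusted p = 7.6e-19). The call of OPRK1, named after its values were seen, rested on 13 to 21 counts in shScramble and 7 to 9 in guide 1 libraries (-1.03; adjusted p = 0.0325). It was lost with DESeq2 (adjusted p = 0.0775), without the filter on low counts (0.085), without shScramble replicate 1 (0.132) or 3 (0.0584) and without guide 1 replicate 1 (0.0717), 2 (0.0881) or 3 (0.0646).

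**Figure D5:**
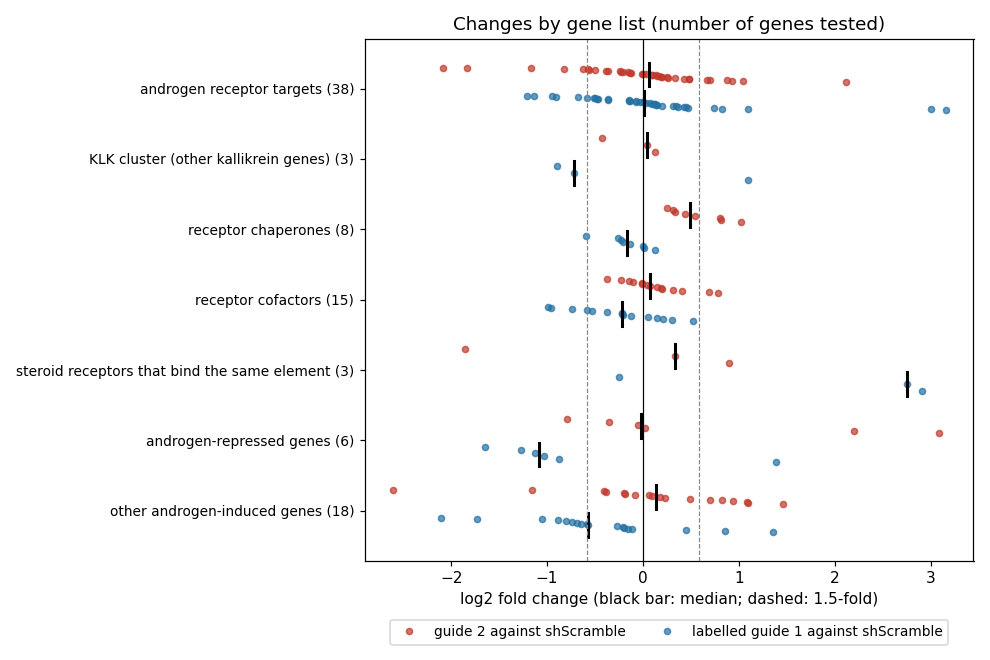
Change against shScramble (horizontal axis, log2 fold change) of each tested gene of the 40 targets and of 6 further lists, for guide 2 (red) and libraries labelled guide 1 (blue), with black bars for medians. The medians of the targets are 0.06 and 0.01, and those of the chaperones 0.49 and -0.17.

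Markers of cell types moved with the same contrasts. The 7 luminal markers, of which HOXB13 is also on the cofactor list, all fell in guide 1 libraries, where their summed level was 1870 to 1950 CPM, and in guide 2 libraries it was 3870 to 4060 CPM. Over all genes 16.5% were lowered in guide 1 libraries. With guide 2, 14.3% of the 7 were called, beside 29.3% of all genes. Of 5 neuroendocrine markers 4 were tested. Of these, 3 rose in guide 1 libraries, where the summed level was 19.9 to 26.3 CPM, beside 6.05 to 6.72 CPM in shScramble, while in guide 2 libraries 3 fell and the sum was 3.03 to 4.42 CPM. When only the 6 libraries of the guide 2 comparison were fitted, 1 of them fell. None of the 5 was at the floor in all 9 libraries. In the main fit 75% of the 4 tested were called in each group, beside 29.3% (guide 2) and 37.7% (guide 1) of all genes. The 6 stromal markers summed to 44.1 to 47.4 CPM in shScramble, 37.8 to 41.3 CPM in guide 2 and 21.8 to 29.6 CPM in guide 1 libraries, mostly from COL1A1. DCN was at 0 counts in all 9 libraries and 3 of the 6 were tested, which did not move together. COL1A1 fell in guide 1 libraries (-1.04; adjusted p = 8.58e-12). PDGFRB rose with guide 2 (1.33; adjusted p = 1.76e-05) and fell in guide 1 libraries (-0.74; adjusted p = 0.0197), whereas ACTA2 rose in guide 1 libraries (2.10; adjusted p = 3.18e-08). These 3 genes were named after their values were seen. The 4 leukocyte markers summed to at most 1.9 CPM in every group, and the 4 basal markers to at most 0.199 CPM. The part of these differences in the target gene values was not tested, and fewer cells of a type cannot be told apart from less RNA per cell in such bulk samples.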

How the data were processed

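RNA-seq of 9 LNCaP:C4-2 libraries was used (3 shScramble, 3 shMETTL3 guide 2, 3 labelled guide 1). Per the labels and the study's methods, the authors trimmed reads with Trim Galore (cutadapt, FastQC), aligned them to GRCh38 with STAR and deposited raw featureCounts counts per gene, without normalisation or pooling. Tool versions, strand setting and multimapping reads were not given in the sources used here. The rest was computed here. The 40 genes and all lists were chosen with earlier results of these data known.

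Counts were scaled by TMM (CPM, and RPKM from the deposited exon lengths). Genes were filtered with filterByExpr (minimum count 10, minimum total 15), leaving 19278. Testing used edgeR 4.0.16's robust quasi-likelihood F test in R 4.3.3, with all 9 libraries in 1 model and Benjamini-Hochberg adjustment over all tested genes. Calls needed adjusted p under 0.05 and 1.5-fold. A positive log2 fold change is higher in the first-named group. Standard errors are of the log2 fold change. The study's own test, DESeq2 (1.42.0), was an alternative, as were other scaling, filters, thresholds, libraries and a replicate block. Of the files' genes, 93.2% had a symbol. Up to 10 tested genes on each side were taken as neighbours. The text names the 40 genes, METTL3 and NR3C1, and the called gene with the largest rise and fall of each list; 1 gene that this rule also names is not reported here. The marker lists serve as checks. Floors of 3 counts (0.0942 to 0.136 CPM) cover counting error only. Within groups, libraries differed beyond sampling noise (chi-square per degree of freedom 3.6 to 9.49). The procedure was tested on simulated data.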

Additional observations from a re-analysis of the deposited data

Results flagged for a closer look

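The direct edgeR test showed a difference between guide 2 and guide 1 libraries for 16 of the 38 tested target genes. This share of 42.1% was under the 47.3% of all genes that differed. In these the difference of the log2 fold changes, guide 2 minus guide 1, was as follows. Among the 8 genes higher in guide 2 libraries it was 1.62 for SPDEF, 1.61 for C1orf116, 1.54 for SORD, 0.95 for CENPN, 0.91 for CREB3L4, 0.73 for GNMT, 0.67 for AZGP1 and 0.60 for KLK4. Among the 8 lower genes it was -4.84 for MAF, -1.48 for NDRG1, -1.09 for TSC22D3, -1.07 for ZBTB10, -1.04 for HPGD, -0.97 for KLK3, -0.70 for SGK1 and -0.68 for ADAMTS1. MAF and SPDEF were called in opposite directions against shScramble, and HPGD was raised in both groups by unequal amounts.

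The same test showed a difference for NR3C1 (-4.76). In the chaperone and cofactor lists it was 1.01 for FKBP4, 1.02 for HSPA8, 1.31 for FOXA1 and 1.52 for HOXB13. In the kallikrein cluster it was 1.03 for KLK1 and -1.54 for KLK14. Among androgen-repressed genes it was 3.98 for UGT2B17, 1.30 for CAMK2N1 and -1.37 for MET. Among further androgen-induced genes it was 1.73 for INSIG1, 1.70 for F5, -3.47 for BMPR1B and -1.74 for GREB1. METTL3 RNA was lowered in guide 2 libraries and not in those labelled guide 1. Each hairpin was also carried by its own transduced and selected cells. The effects of METTL3 RNA, of the hairpin and of the selected cells therefore cannot be told apart in these differences.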

How the results depend on the processing

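Counts of called target genes stayed within 1.5 times the reported ones under every alternative run that kept the fold limit, and no called change of a target turned direction. DESeq2 gave 11, 10 and 15 target genes for guide 2, guide 1 and the hairpins, and the replicate block gave 11, 10 and 16. Replicate numbers did not pair the libraries, since deviations of same-numbered libraries correlated at -0.0981 to 0.0529. Leaving out each library gave 11 to 12, 10 to 11 and 14 to 17 target genes, 5314 to 5789, 7040 to 7575 and 9074 to 9433 genes in all, 16 to 16, 22 to 26 and 36 to 39 genes of the further lists, and METTL3 changes of -0.98 to -0.92, -0.12 to -0.06 and -0.87 to -0.84. At adjusted p under 0.05 with any fold, 27, 24 and 28 target genes were called beside 11910, 13188 and 14386 genes in all (61.8%, 68.4% and 74.6%), and 36 and 48 genes of the further lists in guide 2 and guide 1 libraries. A test against 1.5-fold itself (glmTreat) called 3261 genes in guide 2 libraries, in place of 5645, and 9, 8 and 12 target genes. Scaling by total count alone moved the median of all genes in guide 2 libraries from -0.04 to -0.19 and that of the targets from 0.06 to -0.09, with 12, 11 and 17 target genes called. Without a filter on low counts, neither STEAP4 (adjusted p = 0.674 and 0.91) nor NNMT (0.16 and 0.747) passed. Between the hairpins, targets called only under other settings were HOMER2 (-0.71), NCAPD3 (-0.62) and TRPM8 (adjusted p = 0.0303) under total-count scaling, HOMER2 with a mean level of 1 CPM required (-0.62) and without guide 1 replicate 1 (-0.59), TRPM8 without guide 1 replicate 1 (-0.96) or guide 2 replicate 1 (-1.28), and TMPRSS2 without guide 1 replicate 2 (0.69). Depth limits SGK1, TRPM8, HPGD and PTGER4, with at most 65 counts in each library.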
